A study of Mus musculus with 26 samples.

Results

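Spleen CD8a dendritic cells (DCs) without the kinase mTOR were set against those of wild-type littermates across 11512 genes. These are the genes whose normalized count, the read count divided by a library's size factor, reached 10 in at least 2 of the 4 spleen CD8a DC libraries, of 23420 gene symbols measured in 26 libraries. The cells were sorted by flow cytometry from mouse spleens at steady state. The knockout (KO) is labelled mTOR {delta}APC, and the wild type (WT) is labelled as littermate. Each genotype had 2 libraries, and the most similar cells, spleen CD11b DCs of both genotypes, also had 2 each. The labels give neither the Cre line that drives the deletion, nor the deleted exons, nor age, and they do not say whether libraries came from separate animals. The p-values below rest on the spread within groups, pooled over all 26 libraries, and that spread may be technical.

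mTOR is a serine/threonine kinase that works in 2 complexes. mTORC1, built around Raptor, is switched on by amino acids and growth factors at the lysosome surface, promotes protein and lipid synthesis and restrains autophagy and the lysosomal gene programme, while mTORC2, built around Rictor, phosphorylates AKT. CD8a DCs, the resident conventional type 1 DCs (cDC1) of the spleen, depend on the transcription factors IRF8 and BATF3, take up dying cells and present their antigens to CD8+ T cells. The red pulp of the same organ holds macrophages that clear old red blood cells and recycle their heme iron under the transcription factor Spi-C.

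The 4 libraries held 7.37 to 10.14 M counted reads, and 13464 to 13620 genes were above 0 in each. Mtor (chromosome 4, 148448611 to 148557683, GRCm38, protein coding) was at 383.7 and 426.8 in WT and at 40.0 and 68.5 in KO, so the libraries go with their genotype labels. In a principal component analysis of the 8 spleen libraries the first component (49.6% of the variance) separated CD8a from CD11b DCs. The second (17.5%) put the 2 WT CD8a libraries at 42.74 and 54.29 and the 2 KO CD8a libraries at -46.17 and -50.98, with the CD11b libraries between -10.16 and 12.46. Sex went with genotype. The summed count of 4 Y-linked genes (Ddx3y, Eif2s3y, Uty, Kdm5d) was 0.9 and 0.0 in the WT libraries but 977.3 and 3049.2 in the KO libraries. Xist was at 5608.4 and 4365.9 in WT and at 3619.7 and 12.0 in KO. KO replicate 1 thus held both female and male transcripts. Sex and genotype cannot be told apart here. The share of genes called, by the rule given next, was 5.41% on chromosome X (20 of 370 genes) and 5.47% on the autosomes.

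KO CD8a DCs had less of many transcripts that mark spleen macrophages, while most cDC1 genes, like most genes, were not called. Genes were called at an adjusted p under 0.05 (limma on log2(normalized count + 1), all 26 libraries in 1 fit, Benjamini-Hochberg adjustment). On this scale the change of genes with low counts is understated. Of the 11512 genes, 635 were called (5.52%), of which 181 were higher in KO (1.57%) and 454 lower (3.94%). The median log2 fold change of the genes called lower was -2.04 and 230 of them fell more than 4-fold, against a median of 0.78 and 32 genes past 4-fold among those called higher. Over all 11512 genes the median was 0.01. The 2 KO libraries lay entirely above or below the 2 WT libraries for 5768 genes (50.1%), and for all 635 of those called. A fit on the 4 libraries alone called 0 genes with limma, with 2045 at an unadjusted p under 0.05 and a smallest adjusted p of 0.0754, so every call rests on the spread shared with the other libraries. Without KO replicate 1 the fit called 352 genes and without KO replicate 2 it called 401.

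**Figure D1:**
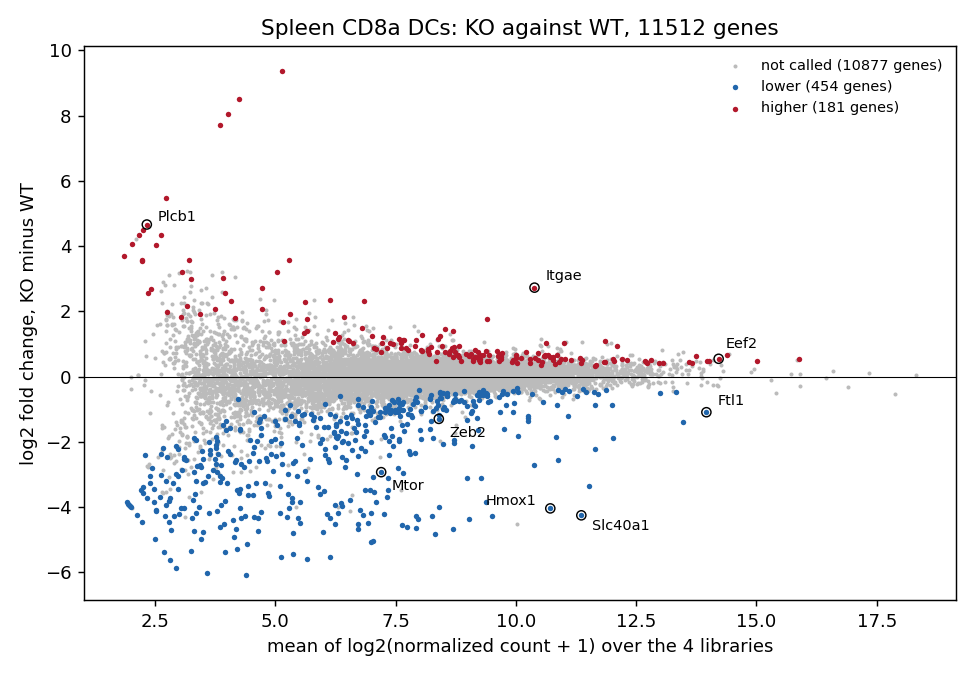
Each point is 1 of the 11512 genes. The horizontal axis gives its mean log2(normalized count + 1) over the 4 spleen CD8a DC libraries and the vertical axis its log2 fold change, KO minus WT; blue and red points are genes called lower (454) and higher (181). Of the called genes, 230 lie past a 4-fold fall and 32 past a 4-fold rise, with 4 Y-linked genes at the top.

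The cells carried the markers of their label in both genotypes. All 20 genes of a cDC1 identity list were higher in the WT CD8a libraries than in the WT CD11b libraries, and the same 20 were higher in the KO CD8a than in the KO CD11b libraries. Xcr1, a chemokine receptor of cDC1, was at 6363.0 and 6377.1 in WT and at 7809.1 and 7170.8 in KO. Clec9a, a receptor for dead cells, was at 5036.2 and 4545.3 in WT, with 4722.7 and 4706.5 in KO. Cd8a itself was at 6345.0 and 6118.6 and then at 6712.7 and 6033.5. Clec9a and Cd8a overlapped between genotypes, and the difference in Xcr1 (0.23 ± 0.71, log2 fold change ± standard error) was not called (limma adjusted p = 0.948). Over the list 1 gene was called higher, 0 lower and 19 were not called, with a median of 0.31. Of all 11512 genes 5.52% were called. The fold change was above 0 for 15 of the 20, and 13 lay above WT without overlap and 4 below, against 2860 and 2908 of all 11512 genes.

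That gene was Itgae, which encodes CD103, the integrin chain that pairs with beta 7 to bind E-cadherin. It was at 547.3 and 492.6 in WT and at 3745.4 and 3170.5 in KO, with no overlap between genotypes (2.73 ± 0.67, limma adjusted p = 0.0149). Spleen CD11b DCs had it at 23.3 and 1.7 in WT and at 53.8 and 31.1 in KO, a change that did not differ detectably from that in CD8a DCs (0.355 ± 0.95 between subsets, adjusted p = 0.984). The call on Itgae was lost without any 1 of the 4 libraries (adjusted p from 0.0626 to 0.129) and in the fit on the 8 spleen libraries (adjusted p = 0.21). Ppt1, a lysosomal thioesterase abundant in cDC1, was at 49644.7 and 49162.5 in WT, with 72435.0 and 68070.5 in KO, and just missed the threshold (0.51 ± 0.15, adjusted p = 0.0523). Cd207, which encodes langerin, stood at 565.3 and 349.7 in WT, with 253.2 and 171.7 in KO, and was not called (-1.09, adjusted p = 0.507).

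**Figure D2:**
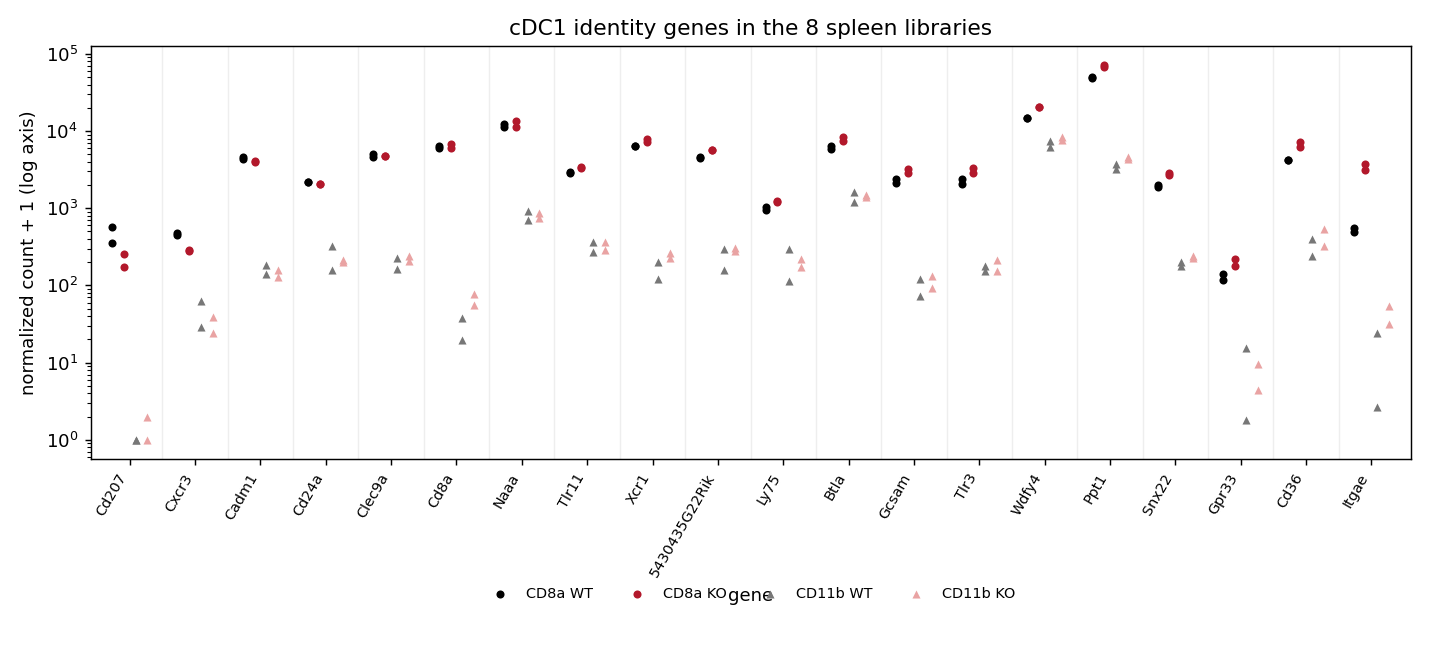
Normalized count + 1 (log axis) of the 20 cDC1 identity genes in each of the 8 spleen libraries; circles are CD8a DCs, triangles CD11b DCs, and genes run from the lowest to the highest log2 fold change. WT and KO circles lie close together for most genes and apart for Itgae, and all circles lie above the triangles of the same genotype. 5430435G22Rik is the table's name for Rab7b.

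Among 24 transcription factors of the DC lineage 1 rose, 1 fell and 22 were not called, while 5.52% of all genes were called. The factors that define the subset were, like most genes, not called. Irf8 was at 16216.2 and 18505.8 in WT and at 22491.0 and 21519.6 in KO (adjusted p = 0.405), Batf3 at 848.8 and 952.9 and at 772.5 and 828.6 (adjusted p = 0.769), and Id2 at 11437.8 and 10488.6 and at 12135.3 and 10860.1 (adjusted p = 0.946). Zeb2, a repressor needed by cDC2, plasmacytoid DCs and several tissue macrophages, fell from 617.5 and 450.1 to 191.7 and 240.2 (-1.29 ± 0.16, limma adjusted p = 6.93e-06). In CD11b DCs the levels were 1009.4 and 961.5 in WT against 1236.5 and 1027.8 in KO, and the difference between subsets was itself called (-1.49, adjusted p = 0.000208). Rbpj, the nuclear effector of Notch signalling, rose from 856.5 and 781.5 to 1326.3 and 1245.4 (0.65 ± 0.15, adjusted p = 0.00673), a call lost without WT replicate 2 (0.0705) or KO replicate 1 (0.0875) and on the 8 spleen libraries (0.0665). Of 18 genes of conventional DCs in general limma called 0, with 4 at an unadjusted p under 0.05 (median 0.10); edgeR and DESeq2 each called 1 and the fit on the 8 spleen libraries 2. Of 14 genes of MHC class II presentation limma, edgeR and DESeq2 called 0, with 1 at an unadjusted p under 0.05 in limma (median 0.21), and the fit on the 8 spleen libraries called 1.

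Genes of red pulp and other spleen macrophages made up the group with the largest fall. Of 23 genes measured under the rule, out of 24 listed, 20 were lower in KO, 0 higher and 3 not called, with a median log2 fold change of -4.25; over all genes 3.94% were lower and the median was 0.01. The 20 lay between -5.03 and -1.86, and their summed counts in KO came to 8.6% of those in WT. That share covers only members chosen for their fall. For the whole list the summed counts were 45799.0 and 77369.2 in WT and 9315.1 and 9497.0 in KO. Fcgr1, Siglec1 and Marco reached a count of 10 only in WT, so they could enter the table only by being high there. Siglec1 and Marco, like the 3 that were not called, fall outside the rule for named genes. The 3 were Treml4 (-0.37, adjusted p = 0.652), Cd68 (-0.61, adjusted p = 0.0528) and the integrin chain Itgad (-1.72, adjusted p = 0.0597). In the fit on the 8 spleen libraries 17 of the 23 were lower, and the calls on Fcgr1 (limma adjusted p = 0.0644) and Siglec1 (0.292) were lost. Without 1 of the 4 libraries at a time, between 19 and 22 of the 23 were lower.

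The promoters of these genes are shown because PU.1 and Spi-C, the ETS factors of this cell type, bind sites with the core GAGGAA. RefSeq windows (GRCm38.p6, 250 bases before to 50 after the annotated start) were found for 12 of the 20 genes. Of the 12, 7 (58.3%) held GAGGAA on either strand, as did 9 of the 14 windows of all macrophage genes measured (64.3%). The share was 28.3% of all 32851 windows of that length, 26.8% of the 9128 windows of genes under the rule and 34.1% of the windows of all genes called lower. Below is the stretch around the first match in each of the 7, on the strand of the gene, 5′ to 3′, with the match in capitals; TTCCTC is GAGGAA read on the other strand.
Mrc1: ctcctacacatgTTCCTCtctccccttcct
C1qb: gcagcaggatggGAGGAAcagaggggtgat
C1qc: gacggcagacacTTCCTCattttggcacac
Axl: accaaggtctccTTCCTCctccccagcctc
Fcgr1: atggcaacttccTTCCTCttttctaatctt
Cd5l: cagtcacctcccTTCCTCtggccatgctga
Marco: tgaagtgggtcaGAGGAAgatttcctgggg
These lie at chr2:14229222-14229251 (plus strand) for Mrc1, chr4:136886213-136886242 (minus) for C1qb, chr4:136893090-136893119 (minus) for C1qc, chr7:25788846-25788875 (minus) for Axl, chr3:96294007-96294036 (minus) for Fcgr1, chr3:87357803-87357832 (plus) for Cd5l and chr1:120505153-120505182 (minus) for Marco. The match begins between 193 and 30 bases before the start in these genes. Of the other motifs searched, CACGTG and TGACTCA were in 0 of the 12 windows, against 7.15% and 5.2% of all windows. Among the windows of genes under the rule the shares were 10.5% and 3.22%. A match is a stretch of letters only, and binding was not measured. Cd5l and Marco are named here for their windows, after their values were seen.

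Some genes of heme and iron handling were also called lower. Hmox1 and Slc40a1 belong to the macrophage list as well, so their fall is not a separate result. Hmox1 (heme oxygenase 1, which opens the heme ring) was at 5364.3 and 8639.6 in WT and at 494.2 and 347.1 in KO, with no overlap (-4.04 ± 0.23, limma adjusted p = 3.62e-11). Slc40a1 (ferroportin, the only known iron exporter) was at 8282.4 and 15846.9 in WT and at 676.7 and 535.6 in KO (-4.25 ± 0.56, adjusted p = 1.55e-05). Blvrb, which encodes biliverdin reductase B, was at 393.1 and 618.3 in WT and at 67.0 and 72.1 in KO (-2.81 ± 0.21, adjusted p = 2.5e-09). In each of the 3 genes both KO libraries lay far below both WT libraries. Of 23 genes of iron and heme handling 8 were lower (against 3.94% of all genes), 1 higher (against 1.57%) and 14 not called, with a median of -0.31. Lrp1, the receptor for heme bound to hemopexin, was among those lower (712.6 and 927.5 in WT, 211.3 and 215.0 in KO, -1.93 ± 0.14, adjusted p = 8.25e-10). The ferritin light chain Ftl1, named after its values were seen, fell by 1.09 ± 0.16 on the log2 scale from 22687.1 and 23786.0 to 10513.0 and 11338.1 (adjusted p = 7.31e-05). The member called higher was Slc39a14, a zinc and iron importer, whose WT libraries lay far apart (50.5 and 7.1) beside 59.6 and 97.3 in KO (1.92, adjusted p = 0.0342); it was lost under 7 of the alternatives, including the fit without WT replicate 2 (adjusted p = 0.566).

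Some genes of dying-cell clearance were also called lower, and Mertk and Axl belong to the macrophage list as well. Mertk, a kinase that recognises apoptotic cells through Gas6 and protein S, was at 605.5 and 911.3 in WT and at 32.6 and 14.4 in KO (-5.03 ± 0.45, limma adjusted p = 4.59e-08). Its relative Axl was at 1699.3 and 3728.3 in WT and at 188.9 and 162.1 in KO (-3.84 ± 0.27, adjusted p = 7.96e-10). Both are apart from their WT levels by more than the spread of either genotype. Of 18 genes of efferocytosis 5 were lower (against 3.94% of all genes), 1 higher (against 1.57%) and 12 not called, with a median of -0.39. The member called higher was Havcr2, which encodes TIM-3, a receptor for phosphatidylserine and an inhibitory molecule of cDC1 (5568.1 and 5571.2 in WT, 7824.0 and 7580.3 in KO, 0.47 ± 0.12, adjusted p = 0.0169). It lost its call without any 1 of the 4 libraries (adjusted p from 0.0753 to 0.135).

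Of 15 complement genes 8 were lower, 1 higher and 6 not called (median -2.78); 5 were lower without WT replicate 2, without KO replicate 2 or on the 8 spleen libraries. C1qa, 1 of the 3 chains of C1q, the starter of the classical pathway, was at 894.2 and 1223.5 in WT and at 39.1 and 45.6 in KO (-4.60 ± 0.40, limma adjusted p = 2.05e-08). C1qa, C1qb and C1qc belong to the macrophage list as well. Over all genes 3.94% were called lower and 1.57% higher. C3, the central component, was at 116.5 and 380.1 in WT and at 31.6 and 8.4 in KO (-3.59 ± 0.475, adjusted p = 1.55e-05), and its call was lost on the 8 spleen libraries alone (adjusted p = 0.0913). The member called higher was Itgam, the alpha chain of complement receptor 3 and the antigen CD11b, at 83.1 and 82.1 in WT and at 148.9 and 260.6 in KO (1.24 ± 0.31, adjusted p = 0.015). Those levels stayed far below the 1585.4 to 2492.5 of the CD11b DC libraries, and the call was lost without WT replicate 1 (adjusted p = 0.0686), WT replicate 2 (0.0757) or KO replicate 2 (0.302), with sample weights (0.0795) and on the 8 spleen libraries (0.074).

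**Figure D3:**
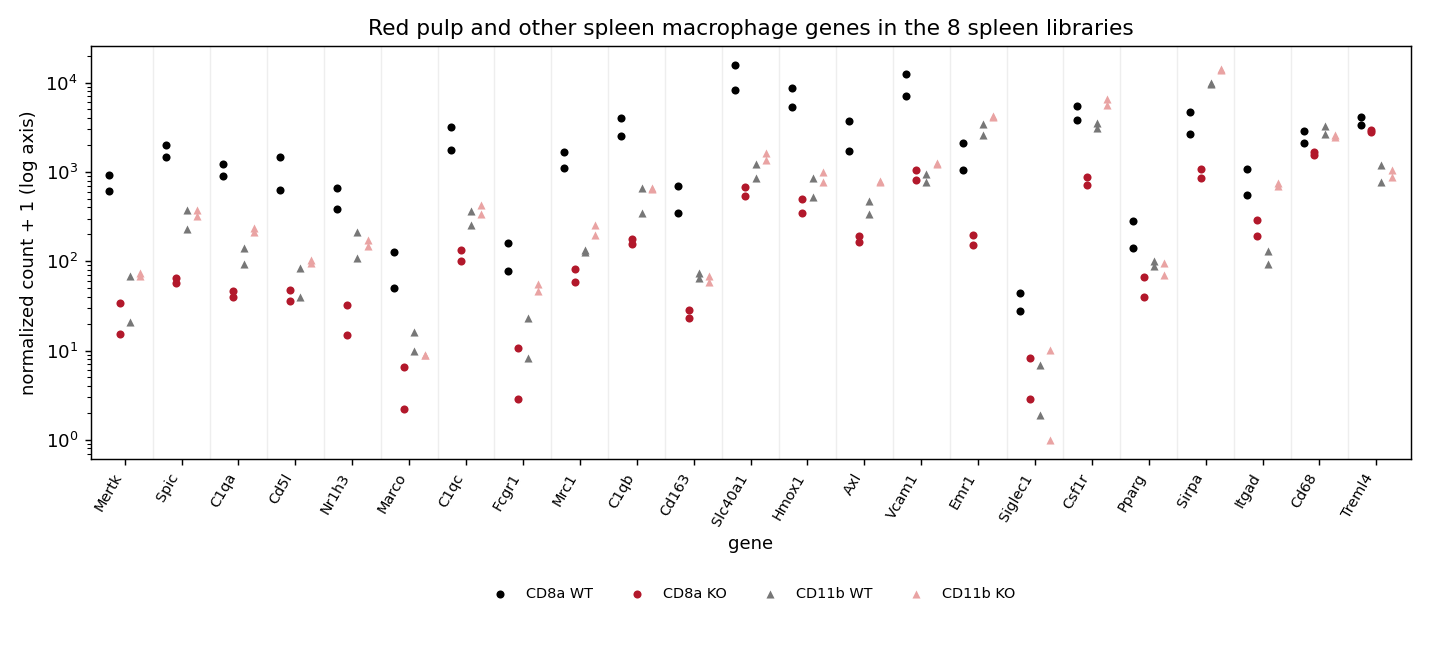
Normalized count + 1 (log axis) of the 23 red pulp and other spleen macrophage genes in each of the 8 spleen libraries, ordered from the lowest log2 fold change in CD8a DCs; circles are CD8a DCs, triangles CD11b DCs. The 2 WT CD8a libraries stand above the 2 KO CD8a libraries in every gene plotted, and for 18 of the 20 genes called lower they also stand above both WT CD11b libraries. Genes called lower are picked in part for high WT CD8a values.

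The 2 WT libraries were unequal in this group. WT replicate 2 was above WT replicate 1 in all 20 macrophage genes called lower, by ratios of count + 1 from 1.36 to 2.56 with a median of 1.76, while KO replicate 2 was above KO replicate 1 in 11 of the 20. Over the 454 genes called lower, WT replicate 2 was the higher WT library in 318 (70%), against 49.4% of all 11512 genes. WT replicate 2 also held more of the listed genes of erythroid cells and platelets, with summed counts of 2667.0 against 367.4 in WT replicate 1 and 86.6 and 150.1 in KO; Hba-a1 and Hba-a2 were at 0 in all 4 libraries. For the whole macrophage list the sums were 45799.0 and 77369.2 in WT, 9315.1 and 9497.0 in KO, and between 22842.8 and 36157.7 in the CD11b libraries. In sorted bulk samples fewer cells of a type and less RNA per cell cannot be told apart, and the part that macrophage RNA plays in the fall of any of these genes was not tested. The lists of other cell types went both ways. Summed counts were lower in KO for B cells (2612.3 and 2339.6 in WT, 1022.9 and 946.3 in KO), of whose 10 measured genes 2 were lower, or 0 without WT replicate 1, WT replicate 2 or KO replicate 1. They were also lower for T cells (1152.0 and 1038.0 in WT, 763.2 and 807.0 in KO) and for stroma and endothelium (1395.2 and 1253.9 in WT, 937.3 and 1028.0 in KO). They were higher in KO for monocytes (8033.2 and 6424.7 in WT, 8739.0 and 10167.2 in KO) and for NK cells (2128.4 and 1389.8 in WT, 2349.3 and 2321.4 in KO). Sums overlapped between genotypes for plasmacytoid DCs (3749.6 to 4918.9 in WT, 3761.2 to 4331.8 in KO). Of the 9 genes of eosinophils, basophils and mast cells found in the table, 6 were at 0 in all 4 libraries and 1, the eotaxin receptor Ccr3, was measured under the rule. Ccr3 was at 793.1 and 1862.1 in WT and at 62.4 and 37.2 in KO (-4.63 ± 1.09, limma adjusted p = 0.0104), and lost its call without WT replicate 2, KO replicate 1 or KO replicate 2 (adjusted p up to 0.112) and with a pseudocount of 0.25 (0.0636). Of 12 neutrophil genes 11 were below 10 in all 4 libraries and 4 were at 0.

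Genes in none of the lists were also called lower. Sepp1, which encodes the selenium carrier selenoprotein P, was at 1444.9 and 2287.9 in WT and at 187.1 and 233.0 in KO (-3.12 ± 0.19, limma adjusted p = 6.61e-11). Niacr1, the receptor for niacin and ketone bodies, was at 298.9 and 362.9 in WT and at 14.9 and 8.4 in KO (-4.76 ± 0.29, adjusted p = 6.61e-11). Neither gene overlapped between genotypes, and each kept its call under every alternative other than the fit on 4 libraries. The same holds for 7 others of the 10 smallest p-values in this direction: the lectin Cd302, the adaptor Dok3, the lysosomal enzymes Pld3 and Pla2g15, the annexin Anxa3, the adhesion receptor Emr4 and the organic anion transporter Slco2b1. Their log2 fold changes lay between -4.28 for Emr4 and -1.91 for Anxa3.

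Lysosomal genes, a set that mTORC1 is known to restrain through the factors TFEB and TFE3, were lower rather than higher where they were called. Of 34 lysosomal hydrolase and membrane genes 12 were lower (against 3.94% of all genes), 0 higher and 22 not called, with a median of -0.27. Cd63, a membrane tetraspanin, was at 406.8 and 255.4 in WT and at 84.7 and 98.5 in KO (-1.81 ± 0.24, limma adjusted p = 1.41e-05). Neu1, a sialidase, was at 362.3 and 312.2 in WT and at 151.7 and 146.5 in KO (-1.17 ± 0.15, adjusted p = 1.19e-05), a call lost on the 8 spleen libraries alone (0.0647). Lamp1, a main lysosome membrane glycoprotein, was at 2967.8 and 3647.2 in WT and at 1489.2 and 1337.8 in KO (-1.22 ± 0.17, adjusted p = 2.45e-05). The KO level of Lamp1 was below its level in all 4 CD11b libraries (3119.7 to 4204.1), and for 11 of the 34 the KO effect was lower in CD8a than in CD11b DCs by the interaction term of the fit (2.42% of all genes).

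The E-box CACGTG, the core of the element that TFEB and TFE3 bind, is shown in the lysosomal promoters for that reason. It was in 5 of 11 windows of the genes called lower (45.5%) and in 12 of the 28 windows of all lysosomal genes measured (42.9%). The share was 7.15% of all windows and 10.5% of the windows of genes under the rule. The stretches around the first match, capitals marking it and 5′ to 3′ on the strand of the gene, were as follows.
Ctsd: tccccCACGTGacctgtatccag
Ctsf: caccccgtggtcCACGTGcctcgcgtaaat
Ctsl: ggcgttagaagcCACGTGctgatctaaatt
Lamp1: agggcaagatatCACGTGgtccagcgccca
Atp6v0d1: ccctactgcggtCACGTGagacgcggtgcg
They lie at chr7:142388055-142388077 (minus strand), chr19:4855074-4855103 (plus), chr13:64370739-64370768 (minus), chr8:13159088-13159117 (plus) and chr8:105566050-105566079 (minus) of GRCm38.p6. Ctsd, Ctsf and Ctsl encode cathepsins and Atp6v0d1 a subunit of the proton pump; Ctsf, Ctsl and Atp6v0d1 are named for their windows, after their values were seen. Of the factors, Tfeb (430.0 and 438.9 in WT, 308.1 and 377.1 in KO, adjusted p = 0.259) and Tfe3 (565.3 and 472.4 in WT, 529.6 and 516.4 in KO, adjusted p = 1.0) were not called. Tfec, the family member found mainly in macrophages, fell from 26.6 and 39.5 to 0.9 and 1.2 (limma adjusted p = 7.21e-06). Tfec reached a count of 10 only in WT, so it could be measured only by being high there. The KO libraries held 2 reads of Tfec and the WT libraries 70, a scaled ratio of 0.0323 with an exact 95% interval of 0.00383 to 0.121 that covers counting error only. Of 27 autophagy genes 1, the cargo receptor Optn, was lower and 0 were higher (median 0.06), and its call was lost under 6 alternatives.

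Of 23 genes of LXR signalling and lipid efflux 10 were lower and 0 higher (median -0.69), with 6 lower without WT replicate 2 or KO replicate 1 and 4 on the 8 spleen libraries. Over all genes 3.94% were called lower. Pltp, a phospholipid transfer protein that LXR induces, was at 31.7 and 115.6 in WT and at 12.1 and 7.2 in KO (-2.57 ± 0.34, limma adjusted p = 1.43e-05), a call lost on the 8 spleen libraries (0.106). In the sterol arm controlled by SREBP, an mTORC1 output in many cells, limma, edgeR and DESeq2 called 0 of 29 genes, with 1 at an unadjusted p under 0.05 in limma and a median of -0.09.

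Within mTOR signalling itself most transcripts were not called, as over all genes, of which 5.52% were called. Among 11 subunits of the complexes only Mtor was called (-2.93 ± 0.27, limma adjusted p = 5.27e-08). Rptor, which encodes Raptor, was at 316.1 and 302.1 in WT and at 249.4 and 283.4 in KO (adjusted p = 0.725), and Rictor was at 739.2 and 671.1 in WT and at 936.4 and 846.7 in KO (adjusted p = 0.322). Of 45 genes of nutrient sensing and mTOR targets 3 were higher, 1 lower and 41 not called (median -0.01), and without KO replicate 1 or KO replicate 2 0 were higher. Rps6kb1, the S6 kinase, was at 627.0 and 552.5 in WT and at 855.4 and 797.4 in KO (0.49 ± 0.14, adjusted p = 0.0445). Pik3ca, a catalytic subunit of PI3 kinase, was at 535.3 and 474.4 in WT and at 761.4 and 677.3 in KO (0.51 ± 0.15, adjusted p = 0.0476). Sesn1, a sestrin that inhibits mTORC1, was at 206.4 and 231.1 in WT and at 148.9 and 118.9 in KO (-0.71 ± 0.21, adjusted p = 0.0483). The calls on Rps6kb1, Pik3ca and Sesn1 were each lost without any 1 of the 4 libraries, with adjusted p up to 0.269, 0.322 and 0.372, on the 8 spleen libraries and by edgeR.

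Genes of the translation machinery were looked at as a group chosen after their values were seen, and those called were slightly higher in KO. Eef2, the elongation factor that moves the ribosome, was at 15820.5 and 15606.6 in WT and at 23151.9 and 22795.0 in KO (0.55 ± 0.11, limma adjusted p = 0.00319). Eif3e, a subunit of initiation factor 3, was at 2058.2 and 2178.4 in WT and at 3262.3 and 3025.2 in KO (0.57 ± 0.10, adjusted p = 0.00065). Caprin1, an RNA-binding protein of stress granules, was at 3547.6 and 4331.5 in WT and at 5752.1 and 5598.8 in KO (0.53 ± 0.10, adjusted p = 0.000797), and Larp1, which binds messages of the ribosome under mTORC1 control, was at 1586.2 and 1693.9 in WT and at 2296.2 and 2447.5 in KO (0.53 ± 0.11, adjusted p = 0.00287). Larp1 was lost without KO replicate 2 (adjusted p = 0.0512) and Caprin1 on the 8 spleen libraries (0.0665). Of 77 cytosolic ribosomal protein genes 6 were called higher (against 1.57% of all genes), 0 lower, and 72 had a fold change above 0, with a median of 0.25. Of all 11512 genes 5895 were above 0, with a median of 0.01. In CD11b DCs, where 1.65% of all genes were called, the median of the 77 was 0.07, limma called 0, and it called no difference between subsets among them. Of 60 autosomal Eef and Eif genes 6 were higher and 0 lower (median 0.15), with 2 higher without KO replicate 1 and 3 without WT replicate 2, without KO replicate 2 or on the 8 spleen libraries. With TMM scaling the median of the 77 was 0.24 and 5 were called higher, with edgeR 2, with DESeq2 12 and on the 8 spleen libraries 2, and 72 were above 0 in each. Without WT replicate 2 the median was 0.16 with 66 above 0, and 1 was called higher there and without KO replicate 1 or KO replicate 2.

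In metabolism most genes were not called, as over all genes, of which 5.52% were called. Slc7a5, the light chain of the leucine transporter LAT1, was at 299.8 and 310.2 in WT and at 555.7 and 582.5 in KO (0.90 ± 0.18, limma adjusted p = 0.00243). G6pdx, the first enzyme of the pentose phosphate pathway, was at 596.1 and 594.0 in WT and at 347.2 and 384.3 in KO (-0.70 ± 0.10, adjusted p = 8.1e-05). Pfkp, the platelet-type phosphofructokinase of glycolysis, was at 1568.3 and 1302.6 in WT and at 3173.9 and 2643.3 in KO (1.02 ± 0.22, adjusted p = 0.00553), and its call was lost without WT replicate 2 (0.0747) or KO replicate 1 (0.105) and on the 8 spleen libraries (0.0886). Of 30 genes of glycolysis and the pentose phosphate pathway 1 was higher and 3 lower (median 0.10), and of 26 genes of amino acid transport and synthesis 1 was higher and 4 lower (median -0.09). The count of lower genes was 1 without WT replicate 1 in glycolysis and the pentose phosphate pathway, and in the amino acid list it was 2 without KO replicate 1 and 1 on the 8 spleen libraries. Asns, asparagine synthetase, a target of ATF4, fell from 34.3 and 35.5 to 5.6 and 1.2 (-3.24 ± 0.55, adjusted p = 0.000404), a call lost on the 8 spleen libraries (0.0652). Of 24 genes of fatty acid oxidation 1 was higher and 4 lower (median -0.02), and the count of lower genes was 1 or 2 without any 1 of the 4 libraries and 0 on the 8 spleen libraries. Of 45 genes of oxidative phosphorylation 1 was higher and 0 lower (median -0.19). Of 37 cell cycle and replication genes limma, edgeR and DESeq2 called 0, with 2 at an unadjusted p under 0.05 in limma. Of 15 BCL2 family genes limma and edgeR called 0, with 4 at an unadjusted p under 0.05 in limma, and DESeq2 and the fit on the 8 spleen libraries called 1 each.

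**Figure D4:**
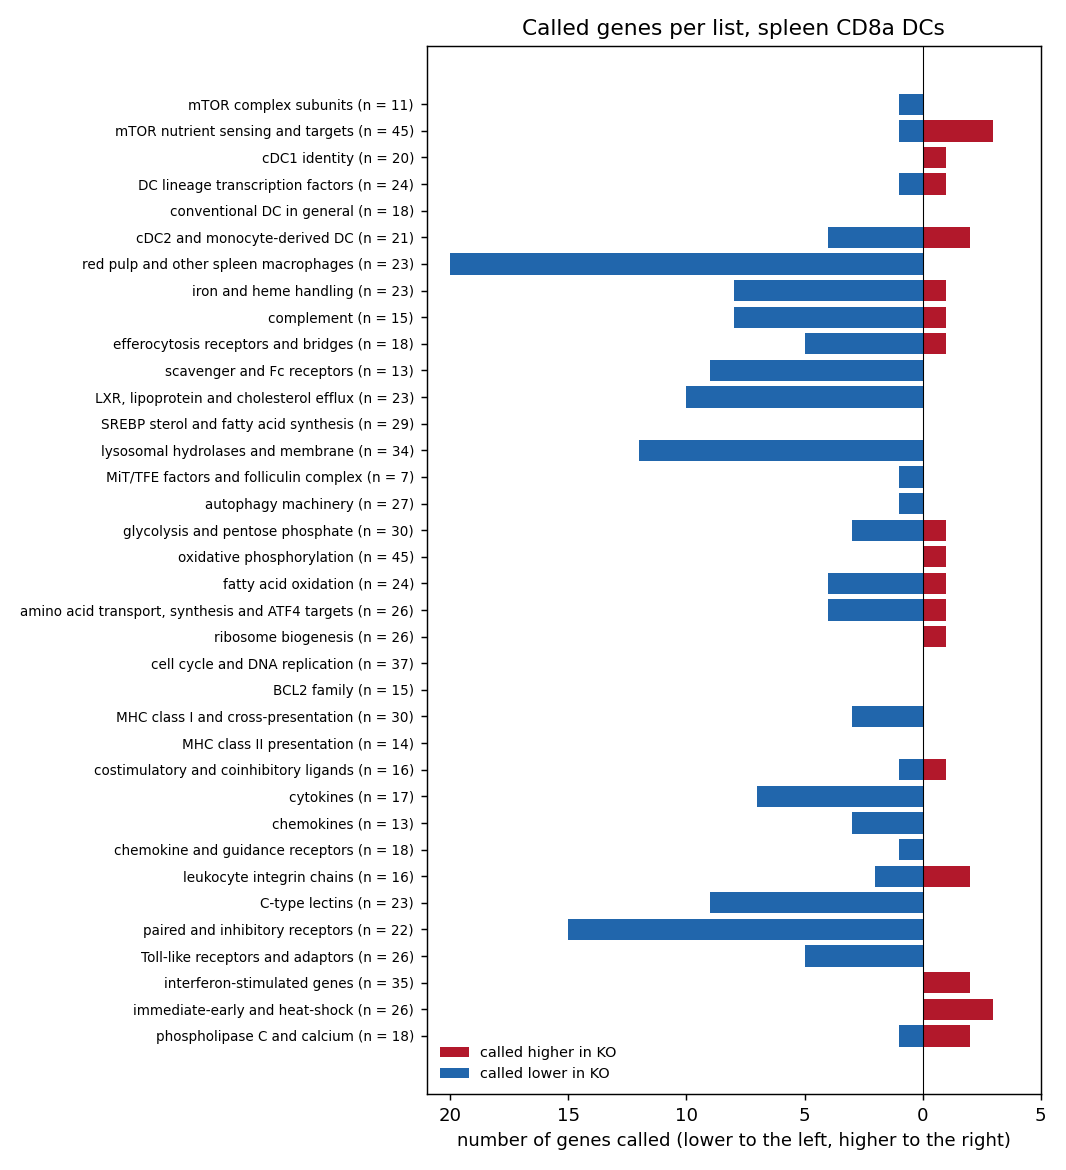
Number of genes called lower (blue, to the left) and higher (red, to the right) in KO CD8a DCs for each of the 36 gene lists, with the number measured under the rule in brackets. The longest bars are those of red pulp and other spleen macrophages (20 of 23 lower), paired and inhibitory receptors (15 of 22) and lysosomal genes (12 of 34), and several lists share genes. Over all genes 3.94% were called lower and 1.57% higher.

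In the lists of innate surface receptors every called gene was lower, and over all genes 3.94% were called lower. These lists share genes with the macrophage list, among them Mrc1, Sirpa, Fcgr1 and Marco. Of 22 paired and inhibitory receptors 15 were lower and 0 higher (median -1.03), of 23 C-type lectins 9 were lower and 0 higher (median -0.69), of 13 scavenger and Fc receptors 9 and 0 (median -1.37), and of 26 Toll-like receptors and adaptors 5 and 0 (median 0.09). The paired receptors had 9 lower without KO replicate 1 and 8 on the 8 spleen libraries, the Toll-like receptors 3 and 2, and the scavenger and Fc receptors 4 on the 8 spleen libraries. Siglece, an inhibitory receptor for sialic acid, was at 235.5 and 367.0 in WT and at 18.6 and 18.0 in KO (-3.93 ± 0.30, limma adjusted p = 3.36e-09). Fcgr3, an activating receptor for IgG, was at 284.4 and 382.2 in WT and at 14.0 and 28.8 in KO (-3.97 ± 0.24, adjusted p = 7.1e-11). Clec4a2, the inhibitory lectin DCIR, was at 167.9 and 262.5 in WT and at 42.8 and 43.2 in KO (-2.26 ± 0.18, adjusted p = 8.33e-09). Pilra, Pilrb1, Clec4a1 and Clec4a3 also fell, but have near-identical relatives that may share their reads. Cd14, the co-receptor for lipopolysaccharide, was at 352.9 and 379.1 in WT and at 73.5 and 93.7 in KO (-2.13 ± 0.26, adjusted p = 3.74e-06) beside 67.3 to 92.3 in the 4 CD11b libraries. Tlr8 fell from 44.5 and 74.0 to 0.9 and 4.8 (-4.13 ± 0.41, adjusted p = 1.81e-07).

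Of 17 cytokine genes 7 were lower (against 3.94% of all genes), 0 higher and 10 not called (median 0.09). Csf1, Il1a and Il10 reached a count of 10 only in WT, so they could be measured only by being high there. Without WT replicate 2 the count of lower genes was 4, without KO replicate 1 or KO replicate 2 it was 3, and on the 8 spleen libraries it was 2. Il18, an inflammasome cytokine, was at 489.1 and 544.3 in WT and at 192.7 and 146.5 in KO (-1.61 ± 0.32, limma adjusted p = 0.00226), and was lost without KO replicate 2 (0.0525). Il15, which maintains memory CD8+ T cells and NK cells, was at 275.8 and 282.8 in WT and at 128.4 and 148.9 in KO (-1.01 ± 0.26, adjusted p = 0.018), and its call was lost without any 1 of the 4 libraries (adjusted p from 0.0603 to 0.172) and on the 8 spleen libraries (0.116). Csf1, the macrophage growth factor, was at 70.2 and 26.4 in WT and at 5.6 and 2.4 in KO (-3.22 ± 0.44, adjusted p = 2.22e-05) and Il1a at 56.5 and 104.4 and at 9.3 and 1.2 (-4.03 ± 0.64, adjusted p = 0.000174), both lost on the 8 spleen libraries alone (0.0733 and 0.0897). Il10, named after its values were seen, was at 11.1 and 19.3 in WT and at 0 in both KO libraries, at least 9.66-fold lower against a floor of 3 reads over the group, and its call was lost without WT replicate 2 (0.122), KO replicate 1 (0.117) or KO replicate 2 (0.109). Of 30 genes of MHC class I and cross-presentation 3 were lower (against 3.94% of all genes) and 0 higher (median -0.03). They were the chaperone Calr, the NADPH oxidase subunit Cyba and Sec22b, which brings endoplasmic reticulum membrane to phagosomes, with log2 fold changes of -0.42, -0.48 and -0.48. Calr lost its call without WT replicate 1, KO replicate 1 or KO replicate 2 (adjusted p up to 0.177) and on the 8 spleen libraries (0.052), Cyba lost it without any 1 of the 4 libraries (from 0.0684 to 0.201), and Sec22b lost it without WT replicate 1 (0.347) or KO replicate 2 (0.46) and under 4 other alternatives.

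Genes called higher included signalling genes. Plcb1, phospholipase C beta 1, which acts downstream of G protein-coupled receptors, was at 0 in both WT libraries and at 21.4 and 27.6 in KO, at least 17.6-fold higher against a floor of 3 reads over the group (limma adjusted p = 1.45e-08). In CD8a DCs it reached a count of 10 only in KO, so it could be measured only by being high there. It rose in CD11b DCs as well (3.6 and 1.7 in WT, 145.4 and 112.7 in KO), with no detectable difference between subsets on the log2 scale (adjusted p = 0.894). Dpep2, a leukotriene-converting dipeptidase, led the genes outside the lists, at 295.5 and 217.9 in WT and at 676.7 and 678.5 in KO (1.41 ± 0.17, adjusted p = 3.7e-06). Atp2a3, a calcium pump of the endoplasmic reticulum, was at 440.2 and 303.1 in WT and at 1259.3 and 1215.4 in KO (1.76 ± 0.30, adjusted p = 0.00043), and the carboxypeptidase Cpd was at 167.0 and 170.3 in WT and at 448.6 and 380.7 in KO (1.29 ± 0.22, adjusted p = 0.000425). These 3 kept their calls under every alternative other than the fit on 4 libraries. Others of the 10 smallest p-values in this direction were Lrrc58, Ctnnbip1, Eif3e, the phosphatase Ptpn7, Caprin1 and Ddi2, of which Ptpn7 (0.0966) and Caprin1 (0.0665) were lost on the 8 spleen libraries. Ctnnbip1 (1.02) lies within 1 Mb of Mtor, where 8 of 29 genes were called (27.6%), 3 higher and 5 lower, against 5.52% of all genes. In CD11b DCs 6 of the 29 were called, against 1.65% of all genes.

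Of 26 immediate-early and heat-shock genes 3 were higher (against 1.57% of all genes) and 0 lower (median 0.44). Egr2, an early growth response factor, was at 168.7 and 297.0 in WT and at 444.9 and 628.1 in KO (1.24 ± 0.25, limma adjusted p = 0.0032). Klf2, a factor of quiescence repressed by PI3 kinase and mTOR signalling in T cells, was at 3364.3 and 2990.4 in WT and at 6076.0 and 6063.5 in KO (0.94 ± 0.26, adjusted p = 0.0333). The third was the chaperone Hspa8 (0.66, adjusted p = 0.0221). Egr2 was lost without WT replicate 1 (0.106) or KO replicate 2 (0.0971), Hspa8 without WT replicate 1 (0.228), KO replicate 1 (0.142) or KO replicate 2 (0.112), and Klf2 without any 1 of the 4 libraries (adjusted p from 0.0791 to 0.166). All 3 were lost on the 8 spleen libraries, and Klf2 also with edgeR (0.0513). Of 35 interferon-stimulated genes 2 were higher (against 1.57% of all genes) and 0 lower (median 0.21). They were Oasl2 (66.0 and 30.4 in WT, 124.7 and 207.8 in KO) and Zbp1 (90.8 and 110.5 in WT, 193.6 and 171.7 in KO). Oasl2 was lost without WT replicate 2 (0.11) or KO replicate 2 (0.107) and on the 8 spleen libraries (0.111). Zbp1 was lost without WT replicate 1 (0.169), KO replicate 1 (0.191) or KO replicate 2 (0.0756) and with sample weights (0.0546).

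The KO effect in CD8a DCs was then set against that in CD11b DCs by the interaction term of the same fit, to ask which changes differ between the 2 spleen subsets. Of the 11512 genes 298 differed (2.59%), 279 with a lower (2.42%) and 19 with a higher (0.165%) effect in CD8a DCs. Of the 454 genes called lower in CD8a DCs 232 were among the 279, and of the 181 called higher 14 were among the 19. Both comparisons use the same CD8a libraries, so this overlap is in part built in. In CD11b DCs alone 190 of these genes were called (1.65%), 165 higher (1.43%) and 25 lower (0.217%). The labels do not say whether the subsets were sorted from the same animals. The Y-linked sum and Xist were at 932.0 and 3092.4 in CD11b KO replicate 1 and at 3295.1 and 21.4 in CD11b KO replicate 2, near those of the CD8a library with the same number, and the fit treats all libraries as independent. All 20 macrophage genes whose effect differed had the lower effect in CD8a DCs. Mrc1, the mannose receptor, had the smallest p: it went from 1097.2 and 1658.4 to 81.0 and 57.6 in CD8a DCs and from 126.5 and 133.7 to 250.7 and 193.3 in CD11b DCs, a difference of -5.04 ± 0.26 (limma adjusted p = 2.76e-11). Csf1r, the receptor for CSF-1, fell from 3777.2 and 5495.2 to 704.6 and 869.5 in CD8a DCs and stood at 3116.1 and 3509.2 in WT and 6566.1 and 5566.3 in KO CD11b DCs (difference -3.41, adjusted p = 5.86e-10). Of the 454 genes called lower, 260 had both WT CD8a libraries above both WT CD11b libraries. Genes called lower are picked in part for high WT CD8a values, and the share over all 11512 genes is not given here.

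In the opposite direction Pde3b, a phosphodiesterase that lowers cyclic AMP and is a substrate of AKT, was at 129.3 and 149.0 in WT and 322.0 and 281.0 in KO CD8a DCs, and at 118.4 and 151.5 in WT and 127.1 and 57.3 in KO CD11b DCs. The difference was 1.75 ± 0.35 (limma adjusted p = 0.00435) and was lost on the 8 spleen libraries (0.282). Inpp5b, an inositol polyphosphate phosphatase, rose in CD8a DCs from 666.4 and 669.0 to 1008.0 and 1017.2 and stood at 1205.0 and 1136.7 in WT and 895.3 and 841.3 in KO CD11b DCs (difference 1.03, adjusted p = 0.0101). Its difference was lost without CD11b KO replicate 2 (0.0549), and its rise in CD8a DCs was lost without any 1 of the 4 libraries (adjusted p from 0.0996 to 0.146).

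**Figure D5:**
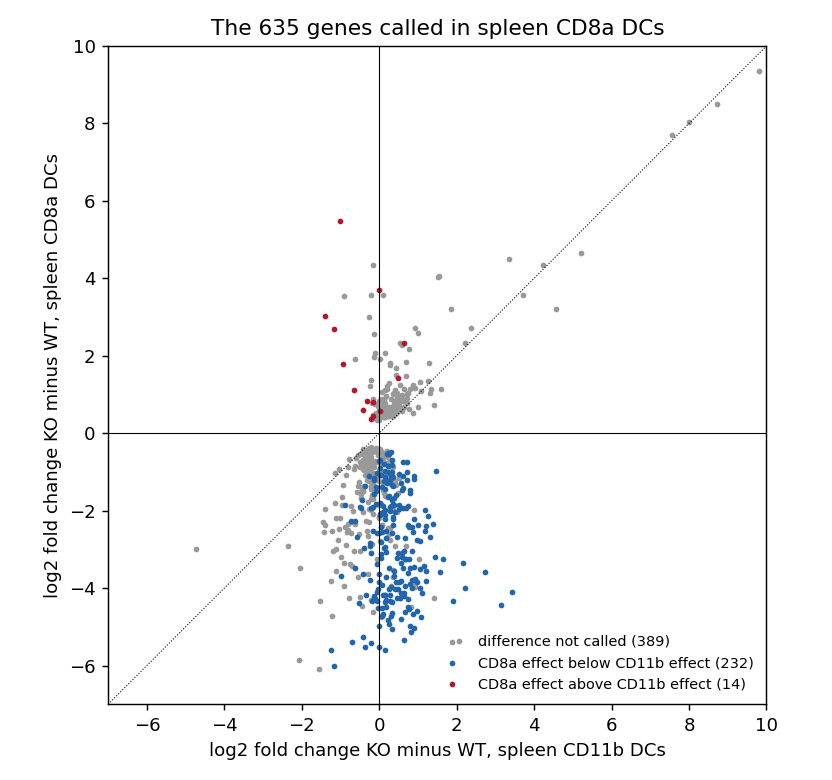
Log2 fold change, KO minus WT, in CD11b DCs (horizontal) and CD8a DCs (vertical) for the 635 genes called in CD8a DCs, with the dotted line marking equal changes; colours give the interaction call. The 232 blue points, with a lower effect in CD8a DCs, spread below the horizontal axis around a CD11b change near 0, and 14 red points have the higher effect in CD8a DCs. The calls and the interaction use the same CD8a libraries.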

How the data were processed

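RNA of sorted cells was sequenced from 26 libraries, 4 of them spleen CD8a DCs. The submitters' processing notes name mm10, STAR 2.3.1s, HTSeq and DESeq2 1.10.1; the version and strand setting of HTSeq are not given in the sources used here. Deposited was a signal per gene symbol, whose steps are those of a read count divided by the library's size factor. Whole reads were recovered from these steps for 100% of values (tolerance 1e-06 reads) and used for edgeR and DESeq2.

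Genes reaching 10 in at least 2 of the 26 libraries (13311) were fitted with limma 3.58.1 (R 4.3.3) on log2(normalized count + 1), 1 mean per group, eBayes with trend. P-values were adjusted over all fitted genes by the Benjamini-Hochberg method, and a gene was called at an adjusted p under 0.05. Of the 11512 genes reported, 242 passed the filter only through WT and 89 only through KO. Alternatives were pseudocounts of 0.25 and 8, other filters, the 8 spleen libraries or 4 libraries alone, sample weights, TMM scaling, edgeR 4.0.16, DESeq2 1.42.0 and leaving out each spleen library. The procedure was tested on simulated data.

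The genes and the 36 gene and 10 marker lists were chosen with earlier results of these data known. Named were Mtor, sex-linked genes, up to 4 called members with the smallest p per list and direction, any cDC1, DC factor or short-list member, the 10 smallest p outside the lists (mean of at least 50, autosomal, protein coding, no overlap), and the 5 smallest p of the interaction in each direction. Positions are from GENCODE M21 and promoter windows from RefSeq. Some genes that this rule would name are not reported here.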

Additional observations from a re-analysis of the deposited data

Results flagged for a closer look

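The KO effect differed between spleen CD8a and CD11b DCs, by limma's interaction term, for 279 genes with the lower effect in CD8a DCs and 19 with the higher effect. The 5 smallest p-values among lower effects belonged to Mrc1 (difference of -5.04 on the log2 scale), Clec4a3 (-4.33), Csf1r (-3.41), Pilrb1 (-5.75) and Niacr1 (-5.83). Those among higher effects belonged to Pde3b (1.75), Inpp5b (1.03), the glycosyltransferase Gcnt2 (1.14), the lipid flippase Atp8b4 (0.81) and Thnsl1 (2.72). Of these, Gcnt2, Atp8b4 and Thnsl1 lost the call on the 8 spleen libraries (adjusted p of 0.332, 0.167 and 0.133) and without CD8a WT replicate 2 (0.137, 0.0808 and 0.113), and Atp8b4 (0.165) and Thnsl1 (0.0932) also without CD8a KO replicate 1. Groups of 2 libraries were too small for a test of single outlying libraries.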

How the results depend on the processing

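The number of genes called in CD8a DCs was 635, and it was 356 on the 8 spleen libraries alone, 0 on the 4 CD8a libraries alone and between 352 and 548 when 1 of the 4 libraries was left out, where the lone library of a group is assumed to vary like the other groups. Of the 356, 258 were among the 635. The 298 genes that differed between subsets became 57 on the 8 spleen libraries alone and between 198 and 341 without 1 spleen library. The cause of these changes was not tested. Pseudocounts, filters, sample weights, TMM scaling, edgeR and DESeq2 gave between 520 and 762 genes in CD8a DCs, and between 222 and 373 differences. No called gene named here reversed its direction under any of these alternatives. With counts from recovered reads, edgeR called 520 and DESeq2 762. No paired analysis was possible because the labels give the spleen groups no shared replicate numbers; the numbers here follow accession order. Sex-linked transcripts of the KO libraries are alike between subsets, and whether animals were shared was not tested. With 2 libraries a group and 7.37 to 10.14 M reads, small changes of genes with low counts could not be resolved.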
